A study of Mus musculus with 42 samples.

Results

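The choroid plexus genes examined here are 10 of the 54232 genes in a count table of 42 mouse brain libraries. They were listed by symbol, and each matched 1 Ensembl gene ID. By role they are the secreted proteins Ttr and Enpp2, the receptors Kl, Folr1 and Prlr, the channels and transporters Aqp1, Kcnj13, Slc4a5 and Clic6, and the transcription factor Otx2. The labels put 20 libraries in cerebellum and 22 in hippocampus. Mice of 4 kinds were compared within each label. Control mice ate normal chow (11% fat), western mice a western diet (42% fat), and the control NaKtide and western NaKtide mice the same diets with 300 mg/kg doxycycline, which turns on a NaKtide transgene. All mice spent 12 weeks on their diet. NaKtide is a peptide derived from the Na,K-ATPase that blocks its signalling through the kinase Src. Each cerebellum group had 5 libraries. The hippocampus groups had 6 control, 5 control NaKtide, 5 western and 6 western NaKtide libraries. Doxycycline and the transgene were given together, and the labels name neither the promoter of the transgene nor the strain, sex or age of the mice. They also do not say whether control and western mice carried the transgene, or that each library came from another animal. The p-values therefore speak only of the spread between these libraries, part of which may be technical.

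The choroid plexus is a folded epithelium on a bed of vessels that hangs in the ventricles of the brain and secretes cerebrospinal fluid. Its cells make transthyretin in large amounts, carry water and ions from blood to ventricle, and move folate and hormones across the barrier. In the mouse it lies in the lateral ventricle beside the hippocampus and in the fourth ventricle under the cerebellum. Ependymal cells, which bear motile cilia and line the ventricle wall, adjoin it.

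Several facts of the whole series bear on these genes. Totals ran from 4669374 to 9521002 counts per library, with 14665 to 16345 genes of at least 10 counts. Gabra6 marks the granule cells of the cerebellum. In libraries with the cerebellum label it reached 10 CPM (the count scaled to the library's total) in 3 and stayed below 1 CPM in 14 of the 20. Under the hippocampus label it reached 10 CPM in 1, western 4 at 25.1 CPM, and stayed below 1 CPM in 21 of the 22. Region names here therefore mean the labels. Xist exceeded 5 counts in 4 libraries (hippocampus control 5 and 6, hippocampus western NaKtide 6 and cerebellum western NaKtide 5). In the same order, summed Y-linked genes were at 49.1, 52.3, 0.21 and 39.1 CPM. The 2 most alike libraries were hippocampus control 5 and 6, at a chi-square of 2.45 averaged over genes. The next 2 pairs crossed the labels: cerebellum western NaKtide 5 with hippocampus control 6 (3.67) and with hippocampus control 5 (5.87). Results that moved without the 4 libraries or with the closest pair summed are given with both values.

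Reference sequence upstream of the start sites is shown for 3 of the genes because they differ in how closely they tracked Ttr below: Kcnj13 and Aqp1 steeply, Prlr less so. The sequences are from RefSeq (GRCm38.p6) and end at the base before the start annotated there. For Aqp1 that start lies upstream of the gene start given below (55336432), which is from another annotation. They are chr1:87394730-87394979 on the minus strand, chr6:55336049-55336298 on the plus strand and chr15:10176988-10177237 on the plus strand. Capitals mark a TATA box (TATAAA) or a CCAAT box (CCAAT), searched on both strands.
Kcnj13: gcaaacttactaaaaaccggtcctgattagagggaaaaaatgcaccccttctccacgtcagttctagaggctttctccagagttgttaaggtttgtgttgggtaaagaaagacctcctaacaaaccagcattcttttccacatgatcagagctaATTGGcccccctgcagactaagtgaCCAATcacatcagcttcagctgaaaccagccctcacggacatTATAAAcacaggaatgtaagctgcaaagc
Aqp1: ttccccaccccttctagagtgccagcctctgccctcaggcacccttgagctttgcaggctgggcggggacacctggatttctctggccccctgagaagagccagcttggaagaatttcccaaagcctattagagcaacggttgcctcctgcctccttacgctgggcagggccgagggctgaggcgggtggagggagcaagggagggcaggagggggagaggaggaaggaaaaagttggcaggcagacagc
Prlr: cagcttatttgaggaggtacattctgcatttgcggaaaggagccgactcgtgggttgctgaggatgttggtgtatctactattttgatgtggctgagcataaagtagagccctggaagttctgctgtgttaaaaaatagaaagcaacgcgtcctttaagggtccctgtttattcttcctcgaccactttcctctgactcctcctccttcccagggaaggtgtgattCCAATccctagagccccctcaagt
The window of Kcnj13 held a TATA box beginning 29 bases before the start and 2 CCAAT boxes, and that of Aqp1 held neither. The window of Prlr shown here held 1 CCAAT box beginning 24 bases before the start. Prlr had further windows, from chr15:10223656 and from chr15:10293401, which held neither box. The bicoid-type site bound by OTX proteins (TAATCC) was also searched for. Ttr, Folr1, Clic6 and Enpp2 were not searched, so nothing can be said of sites near their starts. The search covered the 250 bases before the start in each of 11 windows of the other 6 of the 10 genes. That site was found in 1 of them, a window of Otx2 itself whose 250 searched bases all lie in annotated exons. Of the 11 windows, 7 held no exon bases. The stretch with the site is chr14:48665306-48665329 on the minus strand, with the site read on the opposite strand in capitals.
Otx2: gtgcccctcGGATTAtctcgttag
That motif was present in 6.25% of all 32851 windows of the same length, the TATA box in 12.4% and the CCAAT box in 33.8%. TATA boxes and CCAAT boxes were each found in 3 of the 11 windows.

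Ttr encodes transthyretin, the carrier of thyroid hormone and retinol-binding protein that the choroid plexus secretes (ENSMUSG00000061808, GRCm38 chromosome 18, 20665280 to 20674321, plus strand). It ranged from 6.13 CPM in hippocampus control 1 to 5184 CPM in hippocampus control NaKtide 4, with a median of 165 CPM. In cerebellum, control libraries 1 to 5 held 741, 21.0, 1607, 33.0 and 179.7 CPM. The cerebellum control NaKtide libraries held 102, 194, 619, 46.1 and 19.95 CPM. The cerebellum western libraries held 8.84, 44.2, 32.8, 22.7 and 1726 CPM. Thus a single western library stood above the others, and the first 3 groups overlapped over most of their range. The cerebellum western NaKtide libraries held 1097, 127, 1067, 651 and 210.4 CPM. In hippocampus, the 6 control libraries ran from 6.13 over a median of 298 to 5097 CPM. The hippocampus control NaKtide libraries held 325, 3629.7, 4321, 5184 and 490.3 CPM. Those of the western group held 2608, 10.3, 21.3, 9.37 and 151 CPM, and the 6 western NaKtide libraries ran from 13.6 over a median of 74.2 to 4966 CPM. The 4 groups of each label overlapped, and the 7 libraries with the most Ttr were all labelled hippocampus. The highest library labelled cerebellum was western 5. Because the libraries are bulk tissue, more choroid plexus cells and more of a transcript per cell cannot be told apart.

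**Figure D1:**
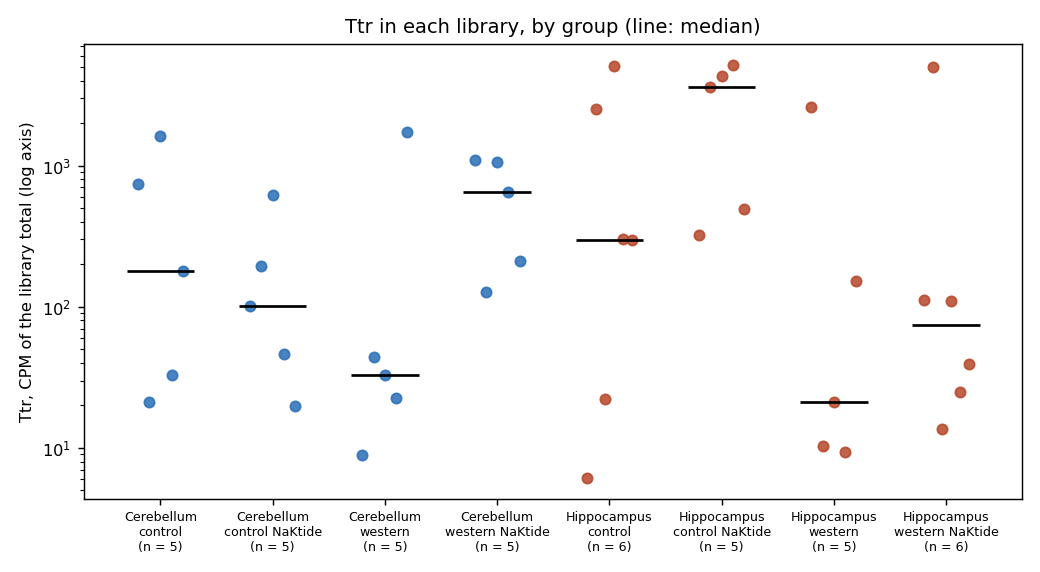
Ttr in CPM of the library total (vertical log axis) in each of the 42 libraries, by group (horizontal axis), with blue points for libraries labelled cerebellum, red for hippocampus, and a black line at each group's median. Libraries of a group differ widely, as in hippocampus western, where 1 library lies at 2608 CPM and the other 4 between 9.37 and 151 CPM.

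Enpp2 encodes autotaxin, a secreted enzyme that makes the lipid mediator lysophosphatidic acid (ENSMUSG00000022425, chromosome 15, 54838901 to 54952892, minus strand). Myelinating oligodendrocytes make it as well as the choroid plexus. It ranged from 96.7 CPM in hippocampus western NaKtide 5 to 1484 CPM in hippocampus western NaKtide 2, with a median of 265 CPM, so it was well covered in every library. In the 7 libraries with the most Ttr, listed by rising Ttr (hippocampus control 2, western 1, control NaKtide 2 and 3, western NaKtide 2, control 4 and control NaKtide 4), Enpp2 was at 619, 694, 823, 1062, 1484, 1239 and 1380 CPM (this order of libraries is kept below). Of the other libraries only cerebellum control 3 came among them, at 622 CPM. In hippocampus control 1, which had the least Ttr, it was at 191 CPM. A least-squares line of Enpp2 on Ttr in CPM gave 185 CPM without Ttr and 217 CPM more per 1000 CPM of Ttr.

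Kl encodes klotho, a membrane coreceptor for the hormone FGF23 that is also shed into the fluid (ENSMUSG00000058488, chromosome 5, 150952607 to 150993817, plus strand). It ran from 0.297 CPM (2 counts, hippocampus western NaKtide 3) to 93.3 CPM (569 counts, hippocampus western NaKtide 2), with a median of 5.85 CPM. In the 7 libraries above it was at 38.5, 41.0, 37.7, 40.03, 93.3, 82.4 and 57.0 CPM. No other library exceeded 20.4 CPM, the value of cerebellum western 5. Hippocampus western 4 had 18.5 CPM of Kl with only 9.37 CPM of Ttr. That library also held 25.1 CPM of Gabra6, and a link between the 2 was not tested.

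Folr1 encodes folate receptor alpha, which carries folate across the choroid plexus into the fluid (ENSMUSG00000001827, chromosome 7, 101858331 to 101870788, minus strand). It had 0 counts in 4 libraries and under 10 counts in 26, and its median was 0.724 CPM. The 7 libraries held 8.13, 3.78, 29.4, 13.5, 16.9, 37.5 and 16.7 CPM. Its share against Ttr was the least even of the 9 genes in these 7 libraries: 8.10 counts per 1000 Ttr counts in hippocampus control NaKtide 2 (177 counts of Folr1) and 7.36 in hippocampus control 4 (216 counts), against 1.45 in hippocampus western 1 (26 counts) and 3.12 to 3.40 in the other 4. Prlr encodes the prolactin receptor, of which the choroid plexus is a known site (ENSMUSG00000005268, chromosome 15, 10177238 to 10349180, plus strand). It had a median of 3.24 CPM, 0 counts in 1 library and under 10 counts in 14. The 7 libraries held 6.93, 8.57, 16.4, 12.5, 22.3, 20.5 and 19.1 CPM. Cerebellum control 3, with 10.2 CPM of Prlr and 1607 CPM of Ttr, stood above the first 2 of them.

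Aqp1 is the water channel of the apical membrane (ENSMUSG00000004655, chromosome 6, 55336432 to 55348555, plus strand). It ranged from 0 counts in hippocampus western NaKtide 3 to 27.3 CPM (157 counts) in hippocampus control 4, with a median of 0.656 CPM and under 10 counts in 28 libraries. The 7 libraries held 10.1, 7.27, 16.8, 13.5, 25.4, 27.3 and 18.8 CPM, and no other exceeded the 5.08 CPM of cerebellum western 5. Slc4a5 encodes an electrogenic sodium bicarbonate cotransporter of the same membrane (ENSMUSG00000068323, chromosome 6, 83219828 to 83304945, plus strand). It had 0 counts in 4 libraries and a median of 1.05 CPM. The 7 libraries held 8.58, 15.1, 17.6, 17.8, 28.1, 30.4 and 25.9 CPM, and only cerebellum western 5, at 9.62 CPM, came among them. Kcnj13 encodes the potassium channel Kir7.1 (ENSMUSG00000079436, chromosome 1, 87386363 to 87394729, minus strand). Its median was 1.09 CPM, with 0 counts in 3 libraries, and the 7 libraries held 10.7, 12.2, 23.4, 15.9, 38.7, 38.8 and 28.1 CPM. Of its exon bases, 49.1% lie opposite exons of Gigyf2, which was at 16.8 to 58.4 CPM in every library, and whether counting used strand is not given in the sources used here. Each of the 3 libraries with 0 counts of Kcnj13 had Gigyf2 counts. Clic6, a member of the chloride intracellular channel family (ENSMUSG00000022949, chromosome 16, 92485736 to 92541243, plus strand), had a median of 7.04 CPM and was at 29.2, 29.9, 40.02, 42.4, 64.0, 71.6 and 61.5 CPM in the 7 libraries. It was at 10.6 CPM in cerebellum western 1, where Ttr was at 8.84 CPM.

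Otx2, the homeodomain factor needed to form and maintain the choroid plexus (ENSMUSG00000021848, chromosome 14, 48657677 to 48673819, minus strand), had a median of 2.50 CPM and 0 counts in 2 libraries. The 7 libraries held 9.18, 10.3, 7.97, 22.8, 37.7, 16.5 and 18.2 CPM. It was also high in some libraries with little Ttr. Cerebellum western 4 had 24.8 CPM of Otx2 (163 counts) with 22.7 CPM of Ttr, cerebellum control NaKtide 1 had 15.6 CPM (91 counts) with 102 CPM, and hippocampus western 2 had 12.2 CPM (76 counts) with 10.3 CPM. Over 9 markers of midbrain and thalamus, where Otx2 is also known to be made, the summed CPM was 283, 314 and 94.4 in those 3 libraries, against a median of 93.1 and a range of 24.8 to 714 over all 42. The part of these regions in the Otx2 values was not tested beyond the fit given below. At 0 counts in a library a gene can still have been present at up to 3 counts, here 0.36 to 0.559 CPM, which covers counting error only.

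**Figure D2:**
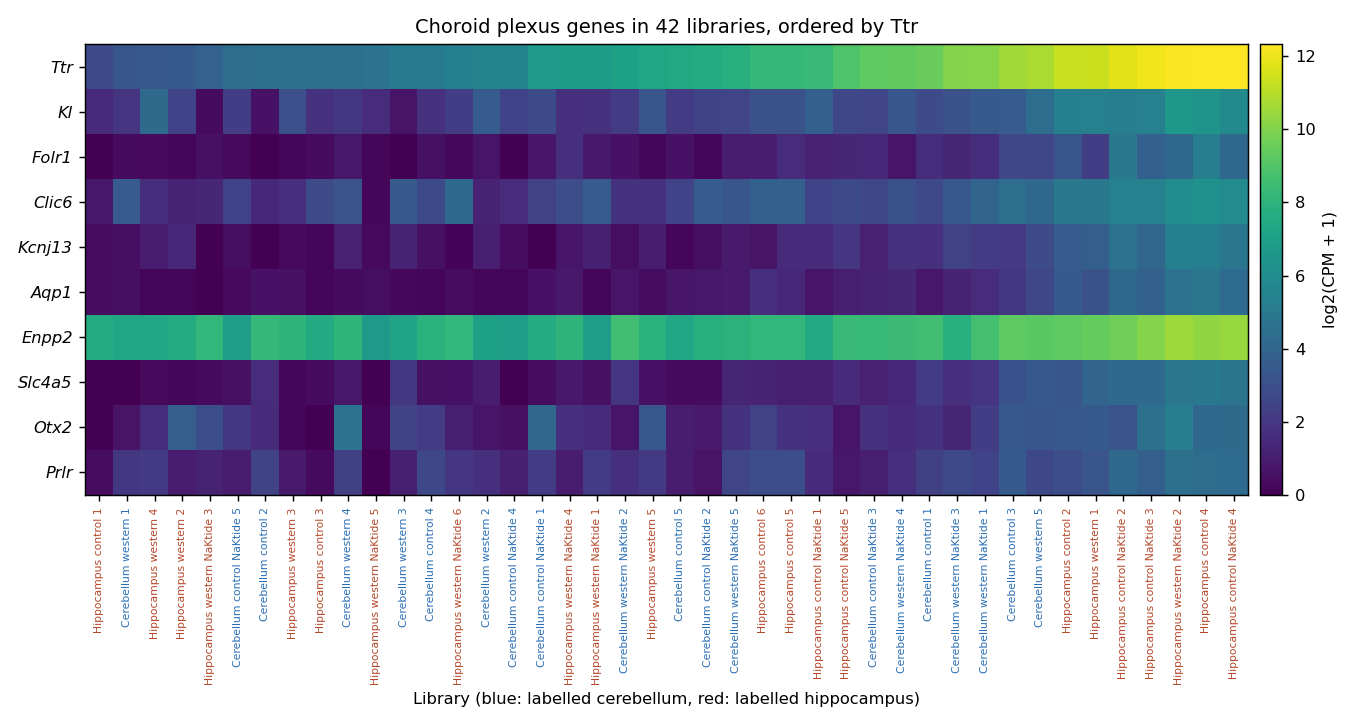
The 10 genes (rows) in the 42 libraries (columns, ordered by Ttr from left to right), coloured by log2(CPM + 1), with library names in blue for the cerebellum label and red for hippocampus. The rows brighten together at the right, where the 7 libraries with 2517 CPM of Ttr or more lie, and Otx2 also has bright cells among libraries with little Ttr.

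Levels of different genes can be compared only per length, for which the deposited FPKM, which are scaled to gene length and library size, were used. By median FPKM over the 42 libraries Ttr was first at 133, followed by Enpp2 at 44.5, Clic6 at 1.78, Kcnj13 at 0.829, Kl at 0.607, Otx2 at 0.592, Folr1 at 0.286, Aqp1 at 0.248, Prlr at 0.198 and Slc4a5 at 0.176. Within single libraries Enpp2 was above Clic6 in 42 of 42 and Ttr above Enpp2 in 30. Among the 8 genes below Enpp2 the order was loose: the gene with the higher median was above its neighbour in 18 to 27 of the 42 libraries. Ttr FPKM ran from 5.06 to 4959 and Enpp2 FPKM from 16.7 to 278. For the 7 libraries with the most Ttr, counts of the other genes were also set against those of Ttr. Per 1000 Ttr counts there were 227 to 299 counts of Enpp2, 9.82 to 14.0 of Clic6, 9.27 to 18.8 of Kl, 3.41 to 5.97 of Slc4a5, 2.79 to 5.35 of Aqp1, 3.67 to 7.80 of Kcnj13, 2.75 to 4.53 of Prlr and 2.20 to 7.60 of Otx2. Over all 42 libraries the same ratio ran from 207 to 31100 for Enpp2 and from 0 to 1188 for Otx2. That range includes the 7 libraries, which were picked by Ttr itself, so it cannot be the narrower one. Whether proportions were more even in the 7 was not tested.

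All 9 other genes were higher in libraries with more Ttr. Over the 42 libraries, on log2(CPM + 1), Pearson's r with Ttr was 0.86 for Aqp1 and Slc4a5, 0.85 for Folr1, 0.84 for Kcnj13, 0.81 for Enpp2, 0.80 for Clic6, 0.79 for Kl, 0.72 for Prlr and 0.53 for Otx2. Spearman's rho was 0.89 for Aqp1, 0.86 for Folr1, 0.84 for Slc4a5, 0.80 for Kcnj13, 0.76 for Kl, 0.75 for Clic6, 0.74 for Enpp2, 0.66 for Prlr and 0.50 for Otx2. In 8 of these 9 relations the two-sided permutation p was 1e-05 for both measures, the smallest that 100000 resamples can give. For Otx2 the permutation p was 0.00025 for r and 0.00083 for rho. Without the 2 libraries farthest from the median of Ttr (hippocampus control 4 and control NaKtide 4) r ran from 0.46 for Otx2 to 0.84 for Aqp1 and Folr1. An r over 0.7 was reached by 8 of the 9 genes and by 0.404% of the 17347 genes tested. Ttr itself had r = -0.29 with the log2 library total (permutation p = 0.0638) and 0.04 with the mitochondrial percentage (permutation p = 0.797).

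**Figure D3:**
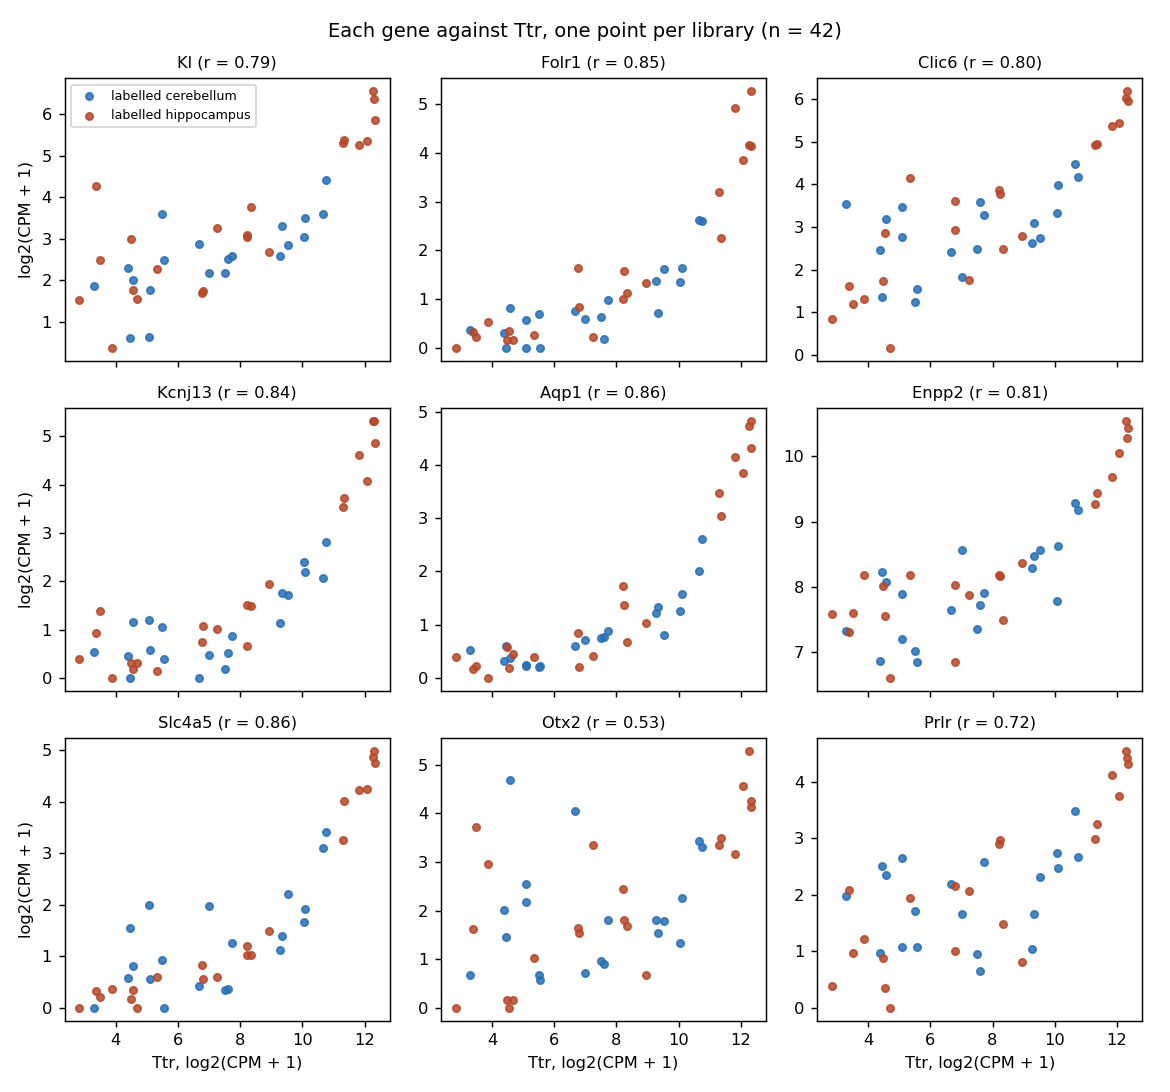
Each of the 9 other genes against Ttr, both as log2(CPM + 1), with 1 point per library (blue for the cerebellum label, red for hippocampus) and Pearson's r over the 42 libraries in each title. Aqp1, Folr1, Kcnj13 and Slc4a5 stay near 0 until Ttr is high and then climb, Enpp2 is near 7 to 8 at low Ttr, and Otx2 scatters at low Ttr.

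The relation was tested as a slope: the log2 change of a gene per log2 unit of Ttr, with the means of the 8 groups taken out, by edgeR's quasi-likelihood test with Benjamini-Hochberg adjustment over all genes. A slope of 1 would be proportional to Ttr. All 9 genes were called higher with Ttr at an adjusted p under 0.05, while 4.95% of the 17347 genes tested were called, 4.13% higher and 0.819% lower. The slope was 0.77 (SE 0.04, adjusted p = 1.97e-15) for Aqp1, 0.76 (SE 0.05, adjusted p = 3.67e-13) for Folr1, 0.76 (SE 0.06, adjusted p = 1.80e-12) for Kcnj13 and 0.75 (SE 0.06, adjusted p = 2.20e-11) for Slc4a5. These were the 4 steepest of the 9. Slopes were lower for Kl at 0.52 (SE 0.05), Clic6 at 0.46 (SE 0.06), Prlr at 0.37 (SE 0.06, adjusted p = 0.00025) and Otx2 at 0.37 (SE 0.10, adjusted p = 0.0206). Enpp2 had the lowest slope, 0.27 (SE 0.03, adjusted p = 4.19e-07). The median slope of the 9 was 0.52, beside -0.0031 over all genes tested. Otx2 was the only one of the 9 whose call depended on single libraries: its adjusted p was 0.131 without hippocampus western NaKtide 2, 0.0551 without hippocampus control 4, 0.0546 without hippocampus control 1 and 0.0858 without the 2 libraries farthest from the Ttr median.

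Within the hippocampus label (22 libraries) all 9 genes were called, with slopes from 0.30 for Enpp2 to 0.96 for Slc4a5 (SE 0.04). There, 1729 of the 17008 genes tested (10.2%) were called higher and 891 lower. Within the cerebellum label (20 libraries) 3 of the 9 were called: Folr1 at 0.63 (SE 0.09, adjusted p = 0.00471), Kcnj13 at 0.57 (SE 0.09, adjusted p = 0.0087) and Aqp1 at 0.55 (SE 0.07, adjusted p = 0.000668). Over the whole table only 13 of the 16948 genes tested (0.0767%) were called there, all higher. The others had cerebellum slopes of 0.43 for Slc4a5, 0.39 for Kl, 0.27 for Clic6, 0.21 for Enpp2, 0.16 for Otx2 and 0.12 for Prlr. Pearson's r within cerebellum was 0.14 for Otx2 (permutation p = 0.553) and 0.33 for Prlr (permutation p = 0.159), and from 0.51 for Clic6 to 0.85 for Aqp1 for the rest. Within hippocampus it ran from 0.70 for Otx2 to 0.93 for Slc4a5. The difference of the slopes between the labels was then tested itself. By edgeR 0 of 9 genes, and 0 of the 17633 genes tested, were called, with 4 of the 9 and 1748 of all genes at an unadjusted p under 0.05. By DESeq2 0 of the 9 and 2 of all genes were called. The largest difference was that of Slc4a5, 0.51 steeper under the hippocampus label (SE 0.12, adjusted p = 0.429), and the smallest that of Enpp2, 0.09 (SE 0.07).

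**Figure D4:**
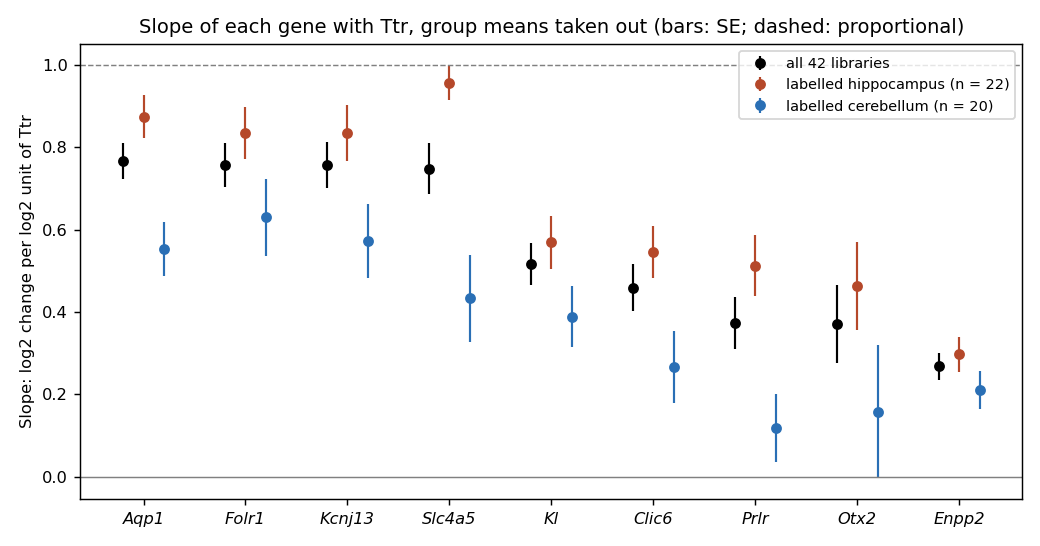
Slope of each of the 9 genes (log2 change per log2 unit of Ttr, vertical axis) over all 42 libraries (black), those labelled hippocampus (red) and those labelled cerebellum (blue), with bars of 1 SE, a solid line at 0 and a dashed line at 1 for a proportional change. Aqp1, Folr1, Kcnj13 and Slc4a5 lie highest over all libraries, and each cerebellum point lies under its hippocampus point, a difference that was not called for any of the 9.

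The genes also tracked each other. Over the 36 pairs among the 9 genes without Ttr the median r was 0.81, from 0.58 for Kl with Otx2 to 0.95 for Folr1 with Aqp1. Among the 16583 genes outside the list ranked by r with Ttr, Aqp1 and Slc4a5 would each stand at place 7, Folr1 at 8, Kcnj13 at 12, Enpp2 at 19, Clic6 at 22, Kl at 23, Prlr at 46 and Otx2 at 462. The 15 outside genes most like Ttr over the 42 libraries (r from 0.83 to 0.92) were 1500015O10Rik, Kcne2, 2900040C04Rik, Calml4, Tmem72, Wfdc2, F5, Krt18, Gpx8, Slc16a8, Krt8, Wdr86, Drc7, Steap1 and Prr32. Of these, 10 stood in a list of 39 further choroid plexus genes. The closest, 1500015O10Rik, which encodes a small secreted protein, ran from 0.525 to 164.9 CPM with r = 0.92 and a slope of 0.79 (SE 0.04). Kcne2, the subunit that partners potassium channels, followed at r = 0.89 and a slope of 0.89 (SE 0.05).

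Of the further choroid plexus genes, 33 of the 38 tested were called higher with Ttr and 0 lower, with a median slope of 0.36. Examples were the tight junction gene Cldn2 at 0.69 (SE 0.06) and the cation channel Trpv4 at 0.43 (SE 0.04). The 5 not called were Car12 (slope 0.18), Igf2 (0.20), Trpm3 (0.13), Slc12a2 (0.08) and the serotonin receptor Htr2c (-0.03, adjusted p = 0.746), which ran from 3.70 to 77.7 CPM. Of 16 genes of cerebrospinal fluid secretion 3 were called higher: Kcne2, the pump regulator Fxyd1 at 0.18 (SE 0.03) and the anion exchanger Slc4a2 at 0.12 (SE 0.03). The sodium pump subunit Atp1b1 (-0.03, adjusted p = 0.398) was not called. Of 12 genes of thyroid hormone and retinol transport, the partners of transthyretin, 4 were called higher, among them Rarres2 at 0.21, the retinol importer Stra6 at 0.17 and the thyroxine transporter Slco1c1 at 0.06. The carrier Rbp4 was not (-0.02, adjusted p = 0.853).

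In 4 lists of genes around the receptors and autotaxin 0 genes were called with Ttr by edgeR, beside 4.95% of the 17347 genes tested. The lists are too small for this to be set apart from that share. Of 10 tested genes of folate transport and use 0 were called by edgeR (1 at an unadjusted p under 0.05, as were 24.4% of all genes), with slopes from -0.03 to 0.07 (Mthfd1, 0.03, adjusted p = 0.127). Of the 10 listed genes of klotho signalling only 4 could be tested, and 0 were called (0 unadjusted). Of 9 tested genes of prolactin signalling 0 were called (0 unadjusted), and of 6 of lysophosphatidic acid signalling 0 (2 unadjusted). By DESeq2 the count was 0 in each of these 4 lists. Among them the receptor Lpar1 had a slope of 0.11 (SE 0.04, adjusted p = 0.106), and the hormone gene Prl one of 0.30 (SE 0.15, adjusted p = 0.217).

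Markers of the neighbouring ependyma moved with Ttr too. Of 10 ependymal markers 9 were called higher, with a median slope of 0.30, among them the cilia gene Cfap126 at 0.32 (SE 0.04) and Foxj1, the master factor of motile cilia, at 0.23 (SE 0.04). Hdc, at 0.16, was not called. Their summed CPM had r = 0.74 with Ttr (permutation p adjusted over 22 lists = 0.00011), 0.93 within hippocampus and 0.36 within cerebellum. It ran from 28.5 to 223 in cerebellum control, 23.2 to 81.6 in control NaKtide, 20.9 to 114 in western and 36.1 to 60.9 in western NaKtide. In hippocampus it ran from 21.4 to 152 in control, 36.7 to 232 in control NaKtide, 16.9 to 115 in western and 20.03 to 127 in western NaKtide. Of the ependymal markers, Mia and Tmem212 were at 0 in at least 1 library. With the ependymal sum as a covariate 5 of the 9 choroid plexus genes were called higher (Kcnj13 0.73, Folr1 0.68, Aqp1 0.64, Slc4a5 0.55 and Kl 0.49), beside 0.18% of the 17633 genes tested. The slopes of Clic6 (0.28, adjusted p = 0.187), Enpp2 (0.17, adjusted p = 0.138), Prlr (0.14, adjusted p = 0.51) and Otx2 (0.04, adjusted p = 0.915) did not pass the test then.

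Of 10 oligodendrocyte markers 2 were called higher (Opalin, 0.13, and Cldn11, 0.13), or 5 by DESeq2, and the 10 slopes ran from 0.09 to 0.14. Their summed CPM ran from 2112 to 19889 and had r = 0.43 with Ttr (permutation p adjusted over 22 lists = 0.0228). With that sum as a covariate the slope of Enpp2 was 0.21 (SE 0.03, adjusted p = 7.66e-05), while that of Otx2 was 0.23 (adjusted p = 0.302). The other 7 genes were called higher in that fit, beside 0.92% of all genes. With the midbrain and thalamus sum as a covariate all 9 genes were called higher, beside 2.04% of all genes, and the slope of Otx2 was 0.37 (SE 0.07, adjusted p = 0.00241). These 3 fits were added after the data were seen. The astrocyte list had 1 of 10 genes called higher, Gfap at 0.15 (SE 0.04). In the fit without such a sum edgeR called 4.95% of the 17347 genes tested. By edgeR 0 genes were called in the lists of endothelium, meninges, pigment epithelium, blood, pituitary, hypothalamus, midbrain and thalamus, cerebellar granule cells, Purkinje cells, dentate granule cells, pyramidal cells and striatum. Unadjusted, up to 4 genes of such a list were under 0.05 (4 of 9 for dentate granule cells, 2 of 10 for meninges), beside 24.4% of all genes, and by DESeq2 1 of the meningeal genes was called higher and 0 in the other lists. The sum of pigment epithelium markers, which ran from 17.5 to 41.3 CPM, had r = 0.47 (permutation p adjusted over 22 lists = 0.0124).

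**Figure D5:**
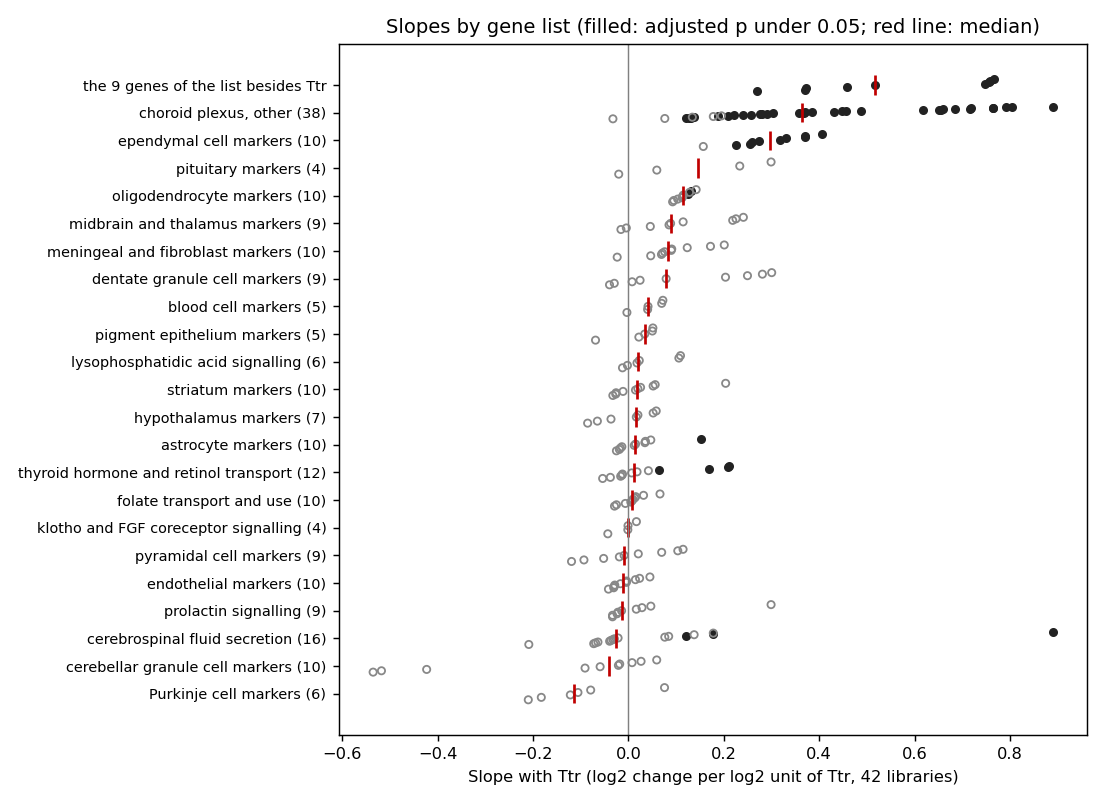
Slope with Ttr (horizontal axis, log2 change per log2 unit of Ttr over 42 libraries) of each tested gene, by list (rows, with the number tested), filled where the adjusted p is under 0.05 and open otherwise, with a red line at the list's median. The 9 genes and the further choroid plexus genes lie farthest to the right, followed by the ependymal markers, and most other lists centre near 0.

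The study's own comparisons, diet and NaKtide within each region label, called none of the genes. All 10 could be tested under the hippocampus label, but only 9 under the cerebellum label, where Aqp1 had too few counts. Ttr was lower in hippocampus western than in control libraries by a log2 change of -1.39 (SE 1.66, adjusted p = 0.626), where 0% of the 16442 genes tested were called. With NaKtide on the control diet it differed by 1.18 (SE 1.61, adjusted p = 0.732), again with 0% called. With NaKtide on the western diet it differed by 0.76 (SE 1.63, adjusted p = 0.739). That last comparison called 33.7% of all genes, 17.4% higher and 16.3% lower, and 0 of the 10. Western NaKtide libraries differed from control NaKtide libraries by -1.81 (SE 1.62) and the interaction was -0.42 (SE 2.26), each with 0% of genes called. By DESeq2 0 of the 10 were called in these 5 comparisons, and 1 edgeR value had an unadjusted p under 0.05 (Folr1, western against control, -3.21, SE 1.42, adjusted p = 0.173). Unadjusted, 24.6% of all genes were under 0.05 in that comparison, and 44.9% with NaKtide on the western diet, where 0 of the 10 were. The direction turned with the libraries used. Without western NaKtide 2 the NaKtide difference on the western diet was -3.08 for Ttr, and Kl was then called lower at -2.75 (SE 0.96, adjusted p = 0.0339), with 5281 genes called in all. Without western 1 the Ttr difference was 4.29. The Ttr difference of western against control was -4.91 without western 1 and -0.27 without control 4.

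In libraries labelled cerebellum the Ttr differences were -0.58 (SE 1.32) for western against control, -1.45 (SE 1.34) for NaKtide on the control diet, 0.80 (SE 1.32) for NaKtide on the western diet and 1.67 (SE 1.35) for western against control with NaKtide. The interaction was 2.25 (SE 1.88). The percentages of the 16338 genes called were 0.00612, 0.00612, 0, 0 and 0.00612. Unadjusted, 0, 3, 0, 3 and 2 of the 9 genes were under 0.05, and of all genes 19.5%, 29.5%, 4.16%, 2.42% and 17.4%. The nearest to a call was Prlr, at 3.99, 4.73, 10.2, 5.31 and 0.948 CPM in control libraries and 3.60, 0.572, 1.06, 1.12 and 0.973 CPM in control NaKtide libraries. The groups overlapped through control 5 alone. The log2 change was -1.95 (SE 0.56, adjusted p = 0.0908). It was called by DESeq2 (-1.98, adjusted p = 0.0249), where 1450 genes were called in all. By edgeR it was called without western NaKtide 3 (-1.96, adjusted p = 0.0424), with 1389 genes in all, and without control 5 (-2.23, adjusted p = 0.0141), with 4386. Without control 5 Slc4a5 was called lower as well (-2.90, adjusted p = 0.0377).

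Between the region labels, averaged over the 4 diet and NaKtide groups, 0 of the 10 genes were called by edgeR, and 0.0468% of the 17088 genes tested. All 10 log2 differences were toward higher in hippocampus, from 0.78 for Enpp2 (SE 0.30) to 2.45 for Kcnj13 (SE 0.67, adjusted p = 0.133), with 1.81 for Kl (SE 0.50, adjusted p = 0.141) and 1.56 for Ttr (SE 0.80, adjusted p = 0.408). Unadjusted, 8 of the 10 were under 0.05, as were 12.8% of all genes. The genes tracked each other (median r of 0.81 over pairs without Ttr), so these 8 are not separate observations. By DESeq2 Kcnj13 (2.50, adjusted p = 0.036) and Kl (1.83, adjusted p = 0.0422) were called higher in hippocampus, of 87 genes called in all. Without hippocampus western NaKtide 2 the edgeR difference was 1.47 for Kcnj13, 1.08 for Kl and 0.60 for Ttr.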

How the data were processed

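The 42 mouse libraries came from a strand-marking mRNA kit, per the labels' protocols. Trimmomatic 0.38, HISAT2 2.1.0 and DESeq2 1.20.0 appear in the submitters' processing notes, with GRCm38. For the counter and its use of strand, the setting is not given in the sources used here. Deposited by the authors were raw counts of 54232 genes, used for all tests, normalized counts (signal, each count over 1 size factor per library) and FPKM made from these, used only for levels between genes. No value column lacked a sample. The design text of the series speaks of liver and adipose tissue, so tissues rest on the labels. The 10 genes, the 22 lists and the rule naming other genes were chosen with earlier results of these data known. That rule took all 10 genes, the 15 outside genes with the largest r with Ttr (mean of at least 1 CPM, with a symbol) and the extreme genes of each list. Other genes were named after their values were seen. Values of 2 list genes are not reported here.

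CPM is per library total. Fits used edgeR 4.0.16 in R 4.3.3 (TMM factors, filterByExpr, quasi-likelihood F test, adjusted p under 0.05), over the libraries of a region label or all 42 with 8 groups. Each SE was derived from the log2 change and F. Slopes used log2(CPM + 1) of Ttr. Tested on simulated data were the edgeR fit of hippocampus NaKtide on the western diet, that of the Ttr slope and the permutation p. Alternatives were DESeq2 size factors, library totals, no filter, DESeq2 1.42.0, no group term, other pseudocounts (0.25 and 5), a replicate block, subsets of libraries and leaving out each library. Coordinates are GENCODE M21.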

Additional observations from a re-analysis of the deposited data

Results flagged for a closer look

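In 31 of the 80 sets formed by a gene and a group, 1 library stood apart from the rest of its group by Dixon's criterion. The 4 given by chance hold for independent sets of normally spread values. The 10 genes share their libraries, so they are not independent, and CPM were skewed (Ttr mean 924, median 165). The 31 can therefore not be weighed against the 4. Only 7 libraries were involved, each time as the highest.

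Hippocampus western NaKtide 2 stood apart for all 10 genes, at 4966 CPM of Ttr against 111 in the next library, 93.3 of Kl, 16.9 of Folr1, 64.0 of Clic6, 38.7 of Kcnj13, 25.4 of Aqp1, 1484 of Enpp2, 28.1 of Slc4a5, 37.7 of Otx2 and 22.3 of Prlr. Hippocampus western 1 did so for Ttr (2608), Folr1 (3.78), Clic6 (29.9), Kcnj13 (12.2), Aqp1 (7.27), Enpp2 (694) and Slc4a5 (15.1). Hippocampus control 4 did so for Folr1 (37.5), Kcnj13 (38.8), Aqp1 (27.3), Slc4a5 (30.4) and Prlr (20.5).

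In libraries labelled cerebellum, western 5 stood apart for Ttr (1726), Folr1 (5.08), Kcnj13 (6.01) and Aqp1 (5.08), control 3 for Aqp1 (3.02) and Clic6 (21.1), and control NaKtide 3 for Ttr (619). Control NaKtide 1 stood apart for Otx2 (15.6) and Prlr (3.60), with Ttr at 102 CPM.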

How the results depend on the processing

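Slopes with Ttr of all 9 genes were called under every normalization, filter and pseudocount tried, with DESeq2 and without a group term. The numbers called were 3 of 9 in libraries labelled cerebellum alone, 5 with the ependymal sum and 8 to 9 when leaving out each library (8 only through Otx2). Over all genes 859 slopes were called, but 556 without a filter, 1430 by DESeq2, 3420 without group term, 2620 in hippocampus, 13 in cerebellum, 247 without the 2 libraries farthest from the Ttr median, 445 with the thalamus, 190 with the oligodendrocyte and 42 with the ependymal sum, and 303 to 1817 when leaving out each library. Slope differences between the labels numbered 0, or 2 by DESeq2.

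Replicate numbers did not pair the libraries: the median correlation of 141 same-numbered pairs was -0.02, and 8 of 42 libraries were most like one of their own number. With a replicate block the 9 slopes were still called, 0 genes were called between region labels, and hippocampus NaKtide on the western diet gave -1.38 for Ttr and -1.29 for Kl, the opposite sign. Without the 4 libraries with Xist the hippocampus interaction of Ttr was 0.26.

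Genes called over the whole table under DESeq2, in the order western, western with NaKtide, NaKtide on control, NaKtide on western and interaction, were 154, 1, 1450, 1 and 18 in cerebellum. In hippocampus they were 838, 35 and 6 for the first 3 and 192 for the interaction. Between region labels they were 87, of which 2 were members, and in cerebellum 1 member was called for NaKtide on control. Without a filter they were 2 for NaKtide on control in cerebellum, and in hippocampus 8 for western, 1 for western with NaKtide and 1 for NaKtide on control. Hippocampus western gave 60 with only the compared groups, 2209 without the 4 libraries with Xist and 39 with controls 5 and 6 summed. The region labels gave 43 and 2 in the last 2 cases.

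Leaving out each library in turn, cerebellum gave 1 to 841, 0 to 0, 1 to 4386, 0 to 1 and 1 to 5 genes in the same order, hippocampus 0 to 515, 0 to 6, 0 to 1, 3807 to 6116 and 0 to 59, and the region labels 0 to 13. Members called were 0 to 2 for NaKtide on control in cerebellum, 0 to 1 for NaKtide on western in hippocampus and 0 to 0 elsewhere. The sign of the Ttr difference turned in some of these for western in cerebellum (-4.43 to 0.47), and in hippocampus for NaKtide on western (-3.08 to 4.29) and the interaction (-4.26 to 3.11), and there also for Folr1 (-0.12 to 4.16) and Kl (-2.75 to 0.88) with NaKtide on western. The cause was not tested. Depth limits the low genes: Aqp1 had under 10 counts in 28 libraries, Folr1 in 26 and Kcnj13 in 25.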
